A study of Sus scrofa with 16 samples.

Results

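PI3, SPAI-2 and SLPI encode small secreted proteins built on the whey acidic protein (WAP) domain. They are 3 of the 6765 gene symbols on a porcine Affymetrix array, and all probe sets annotated with them were taken, which is 1 for each gene among 23999. All 3 passed the filter on dim signals, with 11538 of the 23999. The genes were selected on their measured log2 values in these same groups, in the segment and antibiotic comparisons. Their differences are therefore given with standard errors and without p-values.

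The WAP domain is a compact fold held together by disulphide bonds, and many of its members block serine proteases. PI3, also called elafin or trappin-2, inhibits neutrophil elastase and proteinase 3 and carries a repeat domain through which transglutaminases link it to the tissue. SPAI-2 is a pig protein of the same trappin family that was named for its inhibition of the sodium and potassium pump (Na,K-ATPase). SLPI, the secretory leukocyte protease inhibitor, blocks elastase and cathepsin G and is made by mucosal epithelia. Elafin and SLPI are known from other epithelia as genes induced by interleukin 1, tumour necrosis factor and bacterial products.

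The tissue came from Landrace x Large white x Duroc piglets born preterm by caesarean on gestation day 105. They received parenteral nutrition for 3 days and then enteral formula for 2 days, and small intestine was taken on day 5. Antibiotics piglets were given Ampicillin, Gentamycin and Metronidazol by mouth and by intramuscular injection from birth. Control piglets, called untreated in the sample names, were given saline. There were 16 arrays in 4 groups of 4: control proximal, antibiotics proximal, control distal and antibiotics distal. If the number in each sample name is that of the piglet, they came from 9 piglets, of which 7 gave both segments, piglet 98 only a proximal and piglet 85 only a distal sample. Whole tissue was measured, so fewer cells of a type and less RNA per cell cannot be told apart. All values are GCRMA values on a log2 scale with a floor at 2.14, and values of different probe sets are not compared as levels. A value of 5 served as the limit of a dim signal.

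The tissue labels were checked against marker genes. The epithelial genes EPCAM and VIL1 lay at 13.28 to 15.08 and at 12.37 to 13.44 over all 16 arrays. GATA4, a transcription factor of the proximal gut, lay at 3.79 to 6.97 on proximal and at 2.28 to 2.80 on distal arrays. GUCA2A, the guanylin gene, lay at 5.62 to 8.45 on proximal and at 9.51 to 10.73 on distal arrays. FABP6, the ileal bile acid binding protein, did not separate the segments fully. It was 7.40 in control proximal tissue of piglet 88, above 7.32 and 6.64 in control distal tissue of piglets 89 and 92. In control piglets 1 of 11 tested proximal and 2 of 8 tested distal markers passed an adjusted p of 0.05 in limma between the segments, and in antibiotics piglets 6 and 4 did, of which LEAP2 of the distal list was lower distally. Control distal arrays 83 and 88 stood apart from control distal arrays 89 and 92 in LEAP2 and TMPRSS15, which are expressed proximally. LEAP2, which encodes an antimicrobial peptide and was at 10.52 to 12.95 on all proximal arrays, was at 12.13 and 11.83 on these arrays and at 3.76 and 7.57 on arrays 89 and 92. TMPRSS15, the gene of the duodenal protease enteropeptidase, was at 6.18 and 6.70 against 2.82 and 3.79. The distal marker FABP6 went the other way, at 11.03 and 10.17 on arrays 83 and 88 against 7.32 and 6.64. GATA4 was dim on each of these arrays. How far distally each sample was taken cannot be told from the labels. Member differences are also given without arrays 83 and 88.

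PI3 was high in the distal segment of control piglets and at or near the floor everywhere proximally. In control distal tissue it was 10.97 in piglet 88, 10.07 in piglet 89, 11.89 in piglet 92 and 10.91 in piglet 83. In control proximal tissue of the same piglets it was 2.60, 2.15, 2.55 and 2.58. All 8 proximal arrays were dim, since PI3 was 2.55 in antibiotics proximal tissue of piglets 86, 95 and 98 and 2.60 in that of piglet 87. In antibiotics distal tissue PI3 was 3.40 in piglet 85, 3.71 in piglet 86, 3.13 in piglet 95 and 8.13 in piglet 87. Thus 1 of 4 treated piglets was above 5, and all 4 were below every control distal array.

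SPAI-2 had the same dim signal in proximal tissue and a broader spread in treated distal tissue. In control distal tissue it was 11.79 in piglet 88, 11.34 in piglet 89, 11.57 in piglet 92 and 12.37 in piglet 83. In their proximal tissue it was 2.35, 2.26, 2.14 and 2.31. Antibiotics proximal tissue was equally dim, with 2.14, 2.26, 2.26 and 2.14 in piglets 86, 95, 98 and 87. In antibiotics distal tissue SPAI-2 was 8.19 in piglet 85, 2.31 in piglet 86, 6.71 in piglet 95 and 7.30 in piglet 87. Thus 3 of 4 treated piglets stayed above 5, 1 was near the floor, and none reached the control distal range.

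SLPI was present in both segments and far higher in the distal one. In control distal tissue it was 13.99 in piglet 88, 12.96 in piglet 89, 13.70 in piglet 92 and 14.95 in piglet 83. In their proximal tissue it was 8.37, 7.76, 6.89 and 7.34. No proximal array came near a distal one. In antibiotics proximal tissue SLPI was 8.23 in piglet 86, 7.42 in piglet 95, 8.67 in piglet 98 and 6.82 in piglet 87. In antibiotics distal tissue it was 15.14 in piglet 85, 14.51 in piglet 86, 14.60 in piglet 95 and 14.65 in piglet 87. The treated and control ranges overlapped in both segments.

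**Figure D1:**
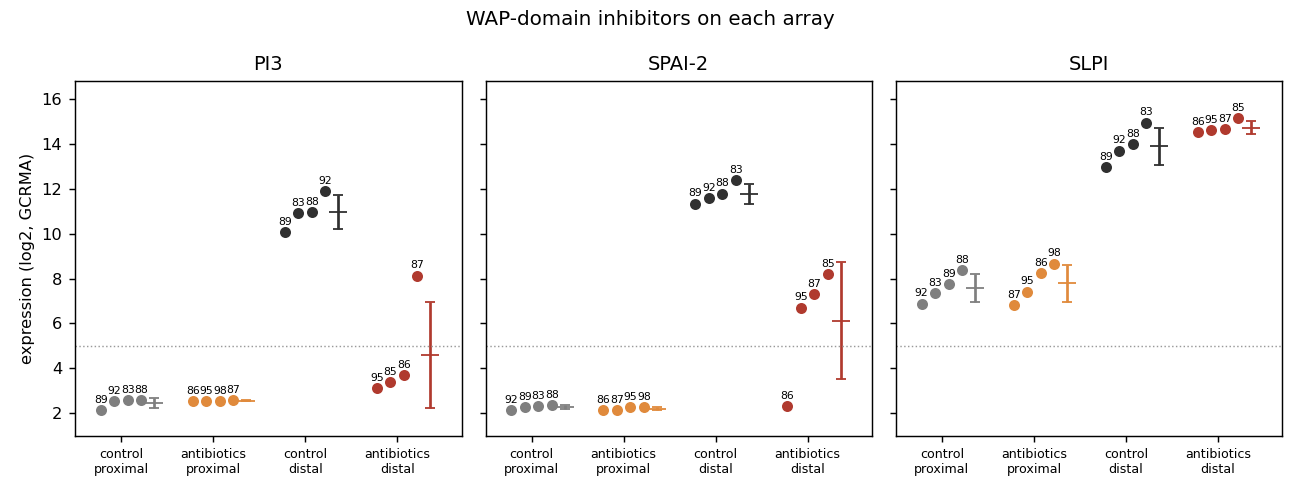
Expression of PI3, SPAI-2 and SLPI (log2, GCRMA) on each of the 16 arrays by group, with 1 point per array and the group mean as a bar. PI3 and SPAI-2 lie near the floor of 2.14 on all proximal arrays and fall in distal tissue with antibiotics, while SLPI stays between 12.96 and 15.14 on all distal arrays.

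The groups were then set against each other, first by segment in control piglets. SPAI-2 was 2.27 ± 0.09 in proximal and 11.77 ± 0.44 in distal tissue (SD, n = 4 each), a difference of 9.50 (SE 0.83). Since the proximal signal is dim, this corresponds to a fold of at least 109, the distal mean against the level of 5. PI3 was 2.47 ± 0.22 and 10.96 ± 0.74 (SD, n = 4 each), a difference of 8.49 (SE 0.79) and at least 62.3-fold. SLPI was 7.59 ± 0.63 and 13.90 ± 0.82 (SD, n = 4 each), a difference of 6.31 (SE 0.44) or 79.5-fold. The sizes for SPAI-2 and PI3 depend on the floor, and with values under 5 set to 5 the differences were 6.77 for SPAI-2, 5.96 for PI3 and 6.31 for SLPI. All 3 passed an adjusted p of 0.05 in limma, as did 0.364% of all tested probe sets, and all 3 had groups that did not overlap, as had 3.93%. These shares are given for orientation only, since the genes were selected with these values in view. Without control distal arrays 83 and 88 the differences were 9.19 (SE 1.08) for SPAI-2, 8.51 (SE 1.03) for PI3 and 5.74 (SE 0.49) for SLPI.

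In antibiotics piglets the segment difference was smaller for PI3 and SPAI-2 and of like size for SLPI. PI3 was 2.56 ± 0.03 in proximal and 4.59 ± 2.37 in distal tissue (SD, n = 4 each), a difference of 2.03 (SE 0.79) that did not pass the adjusted p of 0.05. Without piglet 87 in the distal group it was 0.85. SPAI-2 was 2.20 ± 0.06 and 6.13 ± 2.62 (SD, n = 4 each), a difference of 3.93 (SE 0.83) and at least 2.19-fold. SLPI was 7.78 ± 0.83 and 14.73 ± 0.28 (SD, n = 4 each), a difference of 6.94 (SE 0.44) or 123-fold. SPAI-2 and SLPI passed the adjusted p of 0.05, as did 5.25% of all tested probe sets. The segment groups did not overlap for any member, as for 12.4% of the tested probe sets, but the lowest distal and highest proximal array were only 0.06 apart for SPAI-2 and 0.53 apart for PI3, against 5.84 for SLPI. With values under 5 set to 5 the differences were 0.78 for PI3, 1.80 for SPAI-2 and 6.94 for SLPI.

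**Figure D2:**
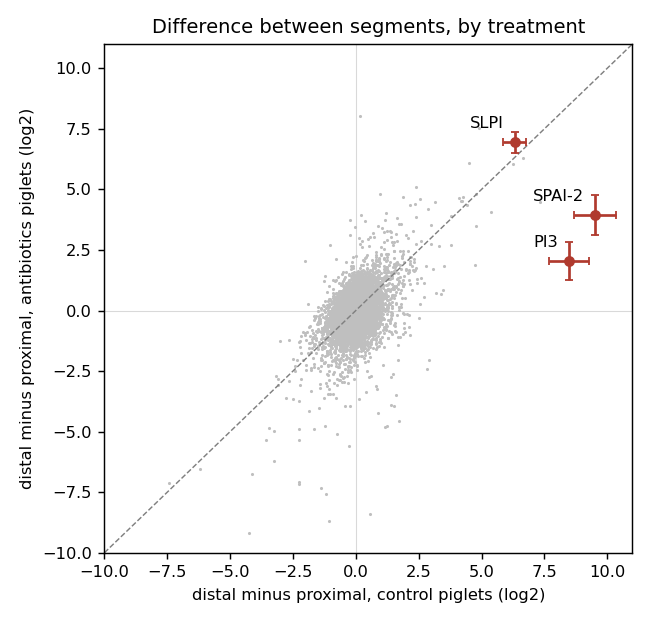
Distal minus proximal difference (log2) in control piglets on the x axis and in antibiotics piglets on the y axis, with 1 grey point per tested probe set, the 3 inhibitors in red with their SE, and a dashed line of equal differences. SLPI lies near the dashed line at 6.31 and 6.94, whereas PI3 (8.49 and 2.03) and SPAI-2 (9.50 and 3.93) lie below it.

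The differences were also taken within the 7 piglets with both segments, on the same arrays. Since proximal PI3 and SPAI-2 lay near the floor, their differences largely restate the distal values. For PI3 the distal minus proximal difference was 8.37, 7.93, 9.34 and 8.33 in control piglets 88, 89, 92 and 83, and 1.16, 5.53 and 0.58 in antibiotics piglets 86, 87 and 95. For SPAI-2 it was 9.44, 9.08, 9.43 and 10.05 in the same control piglets, and 0.17, 5.16 and 4.45 in the antibiotics piglets. Each antibiotics piglet was below each control piglet for both genes, which were selected on these values. The share of all tested probe sets with such a separation was not counted. For SLPI it was 5.62, 5.20, 6.81 and 7.62 in the control piglets, and 6.28, 7.83 and 7.18 in the antibiotics piglets, with overlapping ranges. Distally under antibiotics, PI3 and SPAI-2 were on the same side of 5 in some piglets and not in others. PI3 was dim in piglets 85, 86 and 95, so their order in PI3 cannot be read. Piglet 87 was high in both, piglet 86 low in both, and piglets 85 and 95 had SPAI-2 above 5 with PI3 below it.

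**Figure D3:**
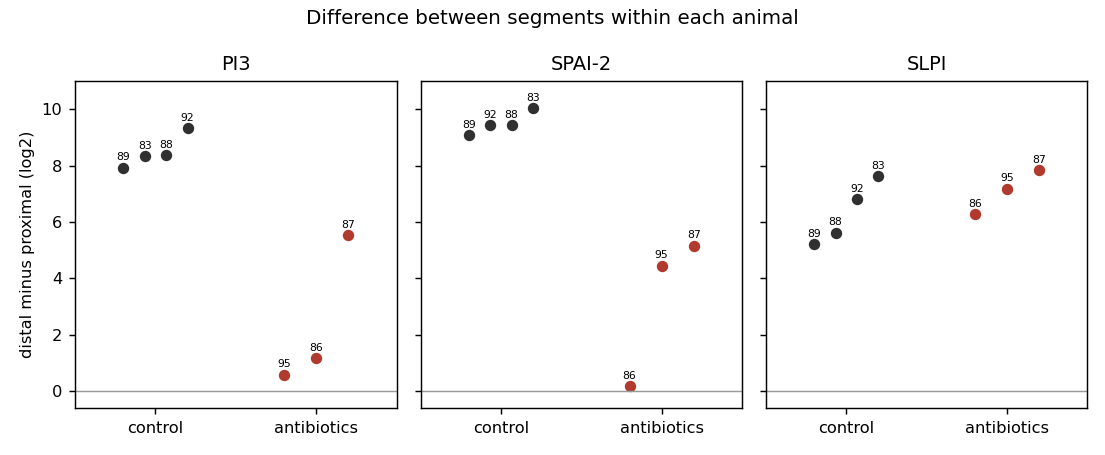
Distal minus proximal difference (log2) within each of the 7 piglets with both segments, for PI3, SPAI-2 and SLPI, by treatment, with 1 point per piglet. Control piglets lie at 7.93 to 9.34 for PI3 and 9.08 to 10.05 for SPAI-2, and antibiotics piglets at 0.58 to 5.53 and 0.17 to 5.16. The treatments overlap for SLPI.

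An antibiotic difference in PI3 and SPAI-2 was seen in distal tissue, while a proximal decrease could not have been seen near the floor. In distal tissue PI3 was lower with antibiotics by a log2 difference of -6.37 (SE 0.79), and 1.94 separated the highest treated from the lowest control array. The SPAI-2 difference was -5.64 (SE 0.83), with a gap of 3.15. The SLPI difference was 0.83 (SE 0.44), or 1.77-fold higher, with overlapping arrays. PI3 and SPAI-2 passed an adjusted p of 0.05 in limma, as did 2.12% of all tested probe sets, and their groups did not overlap, as for 12.7%. These calls and shares are again for orientation only, since the genes were selected on these values. The SEs share 1 estimate of the spread over all 4 groups, whose spread was unequal. With only the 8 distal arrays they were 1.01 for PI3, 1.08 for SPAI-2 and 0.38 for SLPI. With values under 5 set to 5 the differences were -5.18 for PI3 and -4.97 for SPAI-2. Without control distal arrays 83 and 88 the differences were -6.39 (SE 1.03) for PI3, -5.33 (SE 1.08) for SPAI-2 and 1.40 (SE 0.49) for SLPI. The segment and antibiotic comparisons share the control distal arrays, so they are not independent.

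In proximal tissue none of the 3 members passed, where 0.147% of all tested probe sets did. The antibiotic difference was 0.09 (SE 0.79) for PI3 and -0.07 (SE 0.83) for SPAI-2, both between values near the floor, where a decrease could not have been seen. For SLPI, which was well above the floor, it was 0.20 (SE 0.44). With only the 8 proximal arrays the SEs were 0.22 for PI3, 0.20 for SPAI-2 and 0.46 for SLPI. The treated and control arrays overlapped for all 3 genes, while 3.05% of all tested probe sets had proximal groups that did not. The distal effect minus the proximal effect was -6.46 (SE 1.11) for PI3, -5.57 (SE 1.18) for SPAI-2 and 0.63 (SE 0.63) for SLPI. Here 1 of the 3, PI3, passed the adjusted p of 0.05, as did 0.191% of all tested probe sets. Counting the main analysis, PI3 passed in 13 of 29 analyses of these arrays and SPAI-2 in 4 of 29. These calls are for orientation only, since the genes were selected on these values. The sign was the same in all analyses, but with proximal values near the floor the difference restates the distal change. With the piglet as a random block both passed, at -6.41 (SE 1.03) and -5.66 (SE 1.09), and with the piglet as a fixed effect neither did, at -6.07 (SE 1.05) and -6.24 (SE 1.03). The SPAI-2 segment difference in antibiotics piglets passed with the random block, at 3.84 (SE 0.78), and not with the fixed effect, at 3.26 (SE 0.78).

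A pattern chosen after the values were seen, dim proximally and bright distally in controls, was then counted. Of the tested probe sets, 9 were at or below 5 on all 8 proximal arrays and above 5 on all 4 control distal arrays, and 4 of these had a gene: PI3, SPAI-2, DPEP1 and IFT22. On the antibiotics distal arrays 7 of the 9 stayed above 5 throughout, and PI3 and SPAI-2 were the 2 with arrays on both sides of 5. DPEP1, a membrane dipeptidase of the epithelium, had a mean of 7.78 in control distal and 6.46 in antibiotics distal tissue. IFT22, a component of the transport machinery of cilia, had means of 5.46 and 6.85.

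In the RefSeq gene order of the pig assembly Sscrofa11.1, SPAI-2 is the gene next to PI3, and 4 genes lie between PI3 and SLPI, 2 of them protein coding. The 4 nearest tested genes on each side, chosen after the members' values were known, were YWHAB, PKIG, SERINC3 and HNF4A before PI3 and SDC4, SYS1, PIGT and DNTTIP1 after SLPI. Their antibiotic differences in distal tissue ran from -0.91 for SYS1 to 0.51 for PIGT, and none passed an adjusted p of 0.05 in limma. PKIG, an inhibitor of protein kinase A, was higher distally in antibiotics piglets by 1.42 (SE 0.32, limma adjusted p = 0.0152), and its difference in control piglets was 1.24 (SE 0.32, adjusted p = 0.152). No other neighbour passed in a segment comparison.

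The genes most like each inhibitor over the 16 arrays were ranked by Pearson r among tested probe sets with 1 gene. These correlations describe arrays that share groups and piglets. For PI3 the closest was SPAI-2 (r = 0.921, Spearman rho 0.883), then TLR2, a receptor for bacterial lipoproteins (r = 0.882), MAPK6 (0.839), ATP1B1, a subunit of the Na,K-ATPase (0.837), ANGPTL4 (0.807) and CHGB (0.789). For SPAI-2 they were PI3, DPEP1 (0.853), TMEM189 (0.847), TLR2 (0.837), B2M (0.802) and DUSP6 (0.799). Much of this likeness lies between the groups. After group means were removed, r was 0.222 for PI3 with SPAI-2, 0.296 for PI3 with TLR2 and 0.212 for SPAI-2 with TLR2.

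SLPI shared only DPEP1 with these groups of genes. Its closest genes were FABP6 (r = 0.921, rho 0.865), GUCA2A (0.916), LAMP2 (0.906), GGH (0.903), CPQ (0.888) and DPEP1 (0.881). With FABP6 the r was still 0.643 after group means were removed. In control distal tissue FABP6 was 10.17, 7.32, 6.64 and 11.03 in piglets 88, 89, 92 and 83, so piglets 83 and 88 were the highest for FABP6 as for SLPI. SLPI had r = 0.658 with PI3 and 0.779 with SPAI-2 over all arrays, and 0.0125 and 0.258 after group means were removed.

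S100A9 and CXCL8 were not dim in control proximal tissue, unlike PI3 and SPAI-2, whereas TLR2 was at or below 5 on 3 of 4 control proximal arrays. S100A9, a calprotectin subunit abundant in neutrophils, was 6.68, 10.91, 10.51 and 8.06 in control proximal tissue of piglets 88, 89, 92 and 83. In their distal tissue it was 6.20, 9.97, 10.60 and 11.08, and it was at 2.28 to 2.39 in antibiotics distal tissue. CXCL8, the interleukin 8 gene and a neutrophil attractant, was 11.77, 12.54, 14.45 and 13.77 in control proximal and 11.26, 13.15, 13.26 and 12.84 in control distal tissue. Both were thus high in control proximal tissue, where PI3 and SPAI-2 were dim on every array. Within control distal tissue S100A9 was lowest in piglet 88, at 6.20, where PI3 was 10.97 and SPAI-2 was 11.79. In antibiotics distal tissue of piglet 87, where PI3 was 8.13, S100A9 was 2.30 and CXCL8 was 9.53. These are single arrays, and a link of S100A9, CXCL8 or TLR2 with PI3 and SPAI-2 was not tested.

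**Figure D4:**
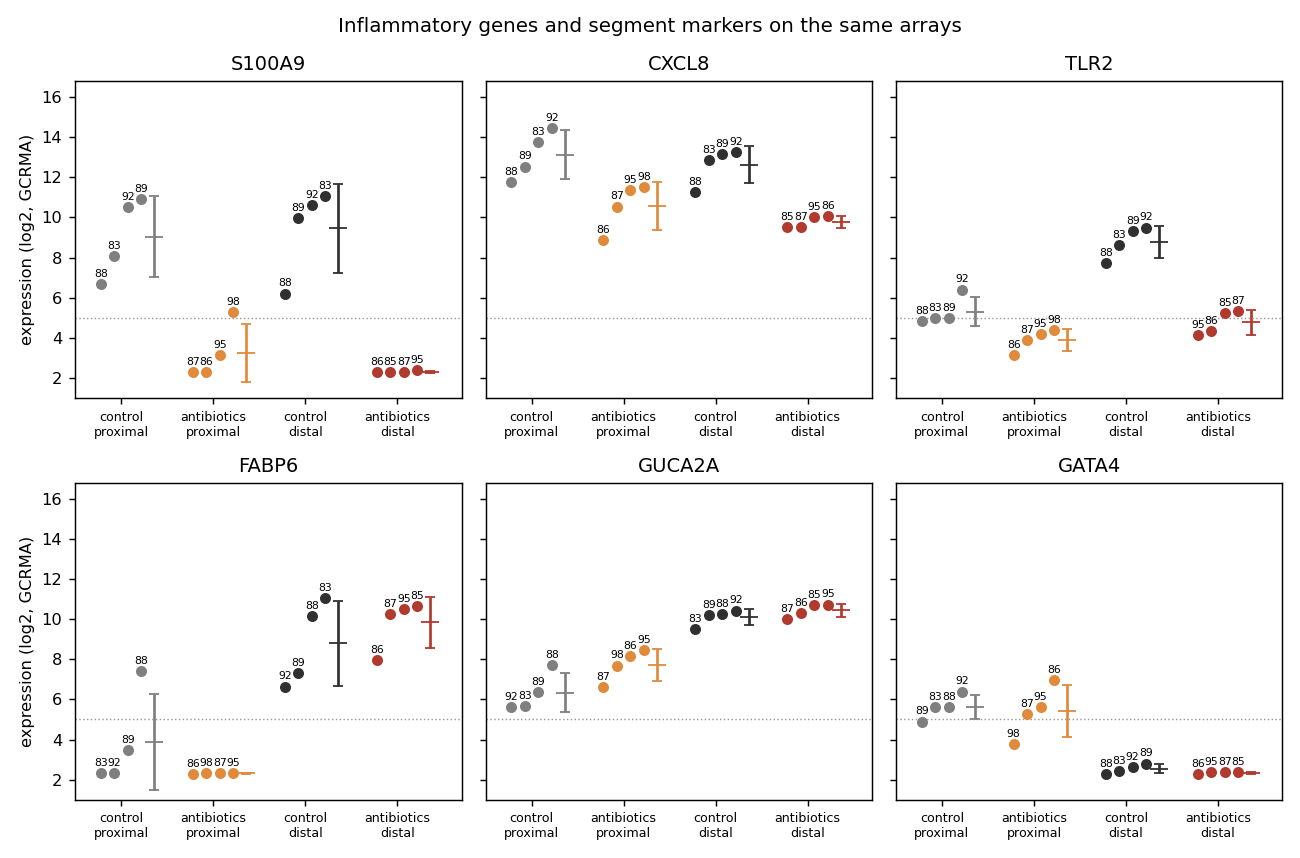
Expression (log2, GCRMA) of the inflammatory genes S100A9, CXCL8 and TLR2 and of the segment markers FABP6, GUCA2A and GATA4 on each of the 16 arrays by group, with 1 point per array and the group mean as a bar. S100A9 and CXCL8 are high in control tissue of both segments, while TLR2 is at 7.72 to 9.49 in control distal tissue and at or below 6.40 in the other groups.

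Lists of related genes, chosen with earlier results of these data known, held 65 different genes that were tested. In distal tissue 1 of the 65 rose and 9 fell with antibiotics at an adjusted p of 0.05, with a median difference of -0.74 against 0.00 over all tested probe sets, of which 2.12% passed. In proximal tissue 0 rose and 3 fell, with a median of -0.51 against -0.07, where 0.147% of all passed. For the difference between these effects none passed, with a median of -0.28 against 0.08, where 0.191% of all passed. Distal against proximal, 1 was higher in control piglets, with a median of 0.16 against -0.01, where 0.364% of all passed. In antibiotics piglets 3 were higher and 4 lower distally, with a median of -0.11 against 0.05, where 5.25% of all passed. The distal antibiotic count was 4 without antibiotics array 85, 5 without antibiotics array 86 or 95 or control array 83 or 92, and 6 without antibiotics array 87 or control array 89.

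Of the wider WAP family, 4 of 21 genes were on the array and only WFDC1 was tested. WFDC1 was 9.04 ± 0.32 in control distal and 8.36 ± 0.28 in antibiotics distal tissue (SD, n = 4 each), a difference of -0.67 (SE 0.24, limma adjusted p = 0.175). WFDC2 was at or below 3.49, WFDC3 at or below 2.42 and WAP at the floor on all arrays.

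Of a broad list of proteases, not all of them known targets of such inhibitors, 15 of 35 were on the array and 7 were tested. In distal tissue 0 of 7 passed with antibiotics, with a median of -0.55. The neutrophil targets ELANE and PRTN3, elastase and proteinase 3, were at the floor, at or below 2.24 and 2.15 on all 16 arrays. Of the tested members, the difference was -1.20 (SE 0.43) for PLAU, the urokinase gene, -0.70 (SE 0.26) for CTSS, cathepsin S, and 0.76 (SE 0.47) for CTSB, cathepsin B. TMPRSS15 was lower distally than proximally in antibiotics piglets by a log2 difference of -9.17 (SE 1.02, limma adjusted p = 6.69e-05), the only call of this list.

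The Na,K-ATPase list, which bears on the name of SPAI-2, had 3 tested genes of 18. None passed in any comparison, and ATP1B1 had a distal antibiotic difference of -0.51 (SE 0.21, limma adjusted p = 0.243). No gene of the 10 transglutaminases was annotated on the array.

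Among other protease inhibitors 18 of 57 genes were tested, and in distal tissue 1 rose and 2 fell with antibiotics, with a median of 0.20. SERPINI1, the neuroserpin gene, rose by 1.82 (SE 0.37, limma adjusted p = 0.0177). TIMP1, an inhibitor of matrix metalloproteinases, had a difference of -3.13 (SE 0.76, adjusted p = 0.0438). SERPING1, the complement C1 inhibitor, had a difference of -1.69 (SE 0.42, adjusted p = 0.0489). The calls of SERPINI1, TIMP1 and SERPING1 were lost in 6, 12 and 13 of the 16 analyses that left out 1 array. CSTB, which encodes cystatin B, had 0.95 (SE 0.37) and SPINT2, a Kunitz inhibitor, 0.47 (SE 0.29), and neither passed. In antibiotics piglets SERPINI1 (1.88, SE 0.37) and SPINK4, a goblet cell inhibitor (0.75, SE 0.19), were higher distally, and AMBP, the bikunin precursor (-6.20, SE 1.27), was higher proximally. The SPINK4 call was lost in 5 of the 16.

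Of the cytokines, receptors and NF-kB genes listed as inducers, 22 of 60 were tested. In distal tissue 0 rose and 4 fell with antibiotics, 21 of 22 had a lower mean, and the median was -1.19. Of all tested probe sets 2.12% passed and 49.6% had a lower mean. TLR2 fell most, by a difference of -4.01 (SE 0.45, limma adjusted p = 0.000166), and this call was kept in all 30 alternative analyses. CXCL8 had -2.85 (SE 0.63, adjusted p = 0.027), TNFRSF1B, a receptor of tumour necrosis factor, -2.55 (SE 0.55, adjusted p = 0.0247), and TLR4, the endotoxin receptor, -2.25 (SE 0.45, adjusted p = 0.0174). These 3 calls were lost in 7, 5 and 3 of the 16 analyses that left out 1 array. In proximal tissue none passed, and 18 of 22 had a lower mean, as had 56.8% of all tested probe sets.

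TLR2 was also the only one of the 65 list genes that was higher distally in control piglets, by 3.48 (SE 0.45, limma adjusted p = 0.000601). It was 7.72, 9.31, 9.49 and 8.61 in control distal tissue of piglets 88, 89, 92 and 83, and 5.25, 4.35, 4.14 and 5.35 in antibiotics distal tissue of piglets 85, 86, 95 and 87. In control proximal tissue it was 4.83, 5.00, 6.40 and 4.98. No antibiotics distal array reached a control distal one. Interleukin 1 and interleukin 6 could not be compared, since IL1A, IL1B and IL6 did not pass the filter.

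Of secreted mucosal defence genes 14 of 40 were tested, and 3 fell with antibiotics in each segment, with medians of -1.87 distally and -2.01 proximally. The same 3 genes fell in both. S100A9 had -7.15 (SE 1.04, limma adjusted p = 0.00161) distally and -5.79 (SE 1.04, adjusted p = 0.0435) proximally. DMBT1, a bacteria binding protein, had -4.20 (SE 0.36, adjusted p = 2.3e-05) and -2.69 (SE 0.36, adjusted p = 0.00848). SFTPD, a collectin, had -4.75 (SE 0.65, adjusted p = 0.000931) and -4.16 (SE 0.65, adjusted p = 0.0187). The proximal calls of S100A9 and SFTPD were lost in 12 and 4 of the 16 analyses that left out 1 array, and that of DMBT1 in 0. In antibiotics piglets DEFB1, a beta defensin, was higher distally by 3.39 (SE 0.55, adjusted p = 0.00188), while LEAP2 (-7.06, SE 1.28) and DMBT1 (-2.12, SE 0.36) were lower there.

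**Figure D5:**
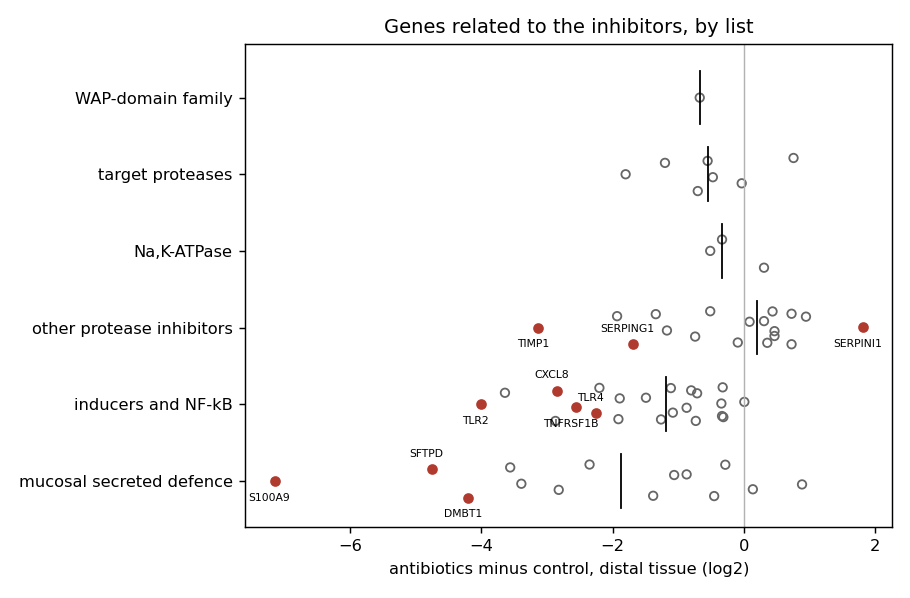
Antibiotics minus control difference in distal tissue (log2) of each tested gene of 6 lists, with 1 point per gene, red where the limma adjusted p was under 0.05, and the list median as a bar. Medians lie at -1.19 for inducers and NF-kB genes and at -1.87 for mucosal defence genes, and at 0.20 for other protease inhibitors.

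Markers of other cells moved along with the distal antibiotic difference of PI3 and SPAI-2, and their part in it was not tested. Of all tested probe sets 2.12% passed for antibiotics in distal tissue. Of the neutrophil markers 13 of 26 were on the array and 4 were tested, and 2 of these, S100A9 and NCF1, fell in distal tissue. The summed level (log2) of the 13 was 11.17 to 12.07 on control distal and 9.20 to 10.03 on antibiotics distal arrays. It was 10.75 to 11.95 on control proximal and 9.37 to 10.56 on antibiotics proximal arrays, where PI3 and SPAI-2 were dim. ELANE, PRTN3, MMP9 and ITGAM were at or near the floor throughout. Macrophage markers had 5 tested genes, of which CD163 and C1QC fell distally. The summed level of the 9 on the array was 11.24 to 11.69 on control distal and 9.48 to 10.48 on antibiotics distal arrays. On control proximal arrays it was 10.91 to 12.06, and on antibiotics proximal arrays 10.16 to 11.69. The summed level of 12 epithelial markers, 11 of them tested, was 16.11 to 16.40 on control distal and 15.89 to 16.02 on antibiotics distal arrays. That of 5 goblet cell markers was 15.24 to 15.62 and 15.40 to 15.60, and no tested member of either list passed. RNA integrity was read from control probe sets at both ends of the GAPDH and actin transcripts. The 5′ minus 3′ value was -3.98 ± 0.25 on control distal and -4.22 ± 0.54 on antibiotics distal arrays (SD, n = 4 each). It was -3.78 ± 0.65 on control proximal and -3.52 ± 0.37 on antibiotics proximal arrays (SD, n = 4 each). With this value as a covariate, the PI3 segment difference in antibiotics piglets was 1.38 (SE 0.89), against 2.03 (SE 0.79) in the main fit. For SPAI-2 it was 3.82 against 3.93, and for SLPI 7.14 against 6.94.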

How the data were processed

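Per the labels' protocols, Trizol extracts were purified on RNeasy columns with DNase treatment, and biotin-labelled RNA came from a 3′ IVT Express kit. The authors deposited log2 values, 1 per probe set and array. GCOS 1.2, GCRMA and limma are named in the submitters' processing notes, with order and settings not given in the sources used here. GCRMA sets dim signals to a common floor, so the size of a difference that reaches it is not well determined (39.7% of values lay under 2.5). On each array 45.1% to 46.5% of probe sets lay above 5.

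The 24123 probe sets included 124 controls, which were removed. Of the rest 10069 carried 1 gene, 198 several and 13732 none in the platform annotation. Those above 5 on at least 4 of 16 arrays were tested. Group means of all 16 arrays were fitted with limma 3.58.1 (lmFit, eBayes) in R 4.3.3, and p-values of 5 comparisons were adjusted by Benjamini-Hochberg over the 11538 tested probe sets at 0.05. P-values rest on the spread between arrays of a group, and the main fit treats the 16 arrays as independent. It has no term for the piglet. The segment comparisons and the difference of effects set arrays of the same piglets against each other, and their p-values do not measure the spread within a piglet. Litters were not used here. A fold of at least a value is the higher mean over the level of 5, where all arrays of the lower group were at or below it. A gene is its probe set with the highest mean. Summed levels add the linear values of all markers of a list that were on the array, tested or not.

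The members and lists were chosen with earlier results of these data known. Text names all members, the 6 genes most like each, list genes that passed, and those needed to show a marker absent; other list genes and neighbours were chosen after their values were seen. Whether probes for PI3 and SPAI-2, which are related in sequence, detect each other's transcript was not tested.

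The number in the sample names was taken as the piglet's, so segments are paired, which the main fit did not use. Residuals of both segments correlated at 0.0293 to 0.526 over 7 piglets, above 0.1 for 5, and the block correlation was 0.172 (duplicateCorrelation, statmod 1.5.0). Alternatives were other filters, scalings, floors, eBayes settings, weights, sample sets, blocks, an adjusted p of 0.10, the mean of a gene's probe sets, and each array left out. A 5′ minus 3′ covariate, and leaving out control distal arrays 83 and 88, were added after seeing the data. On simulated distal data with 50 changed probe sets per size among 11538, log2 changes of 1, 2, 3 and 5 were recovered in 36%, 88%, 98% and 98%, with 8 false of 168 calls. Plots used matplotlib 3.10.9 (Python 3.11.15).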

Additional observations from a re-analysis of the deposited data

Results flagged for a closer look

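In each group of 4 arrays a single array was looked for whose gap to the nearest other, as a share of the group's range, exceeded Dixon's critical value. This was so in 8 of 84 sets (21 genes in 4 groups). The chance rate of about 1 in 20 holds for normally distributed values. It is no yardstick here, since several sets lay near the floor and genes were chosen with values known. PI3 was 8.13 in antibiotics distal tissue of piglet 87 against 3.13 to 3.71 in the other 3 piglets. On this array 3 of 22 inducer genes and 3 of 14 defence genes had their highest antibiotics distal value, against 31.4% of all tested probe sets. PI3 was also set apart at 2.15 in control proximal tissue of piglet 89 (others 2.55 to 2.60) and at 2.60 in antibiotics proximal tissue of piglet 87 (others 2.55), both near the floor. TLR2 was 6.40 in control proximal tissue of piglet 92, against 4.83 to 5.00. FABP6 was 7.97 in antibiotics distal tissue of piglet 86, against 10.27 to 10.64. SERPINI1 was 10.91 in control proximal tissue of piglet 92, against 11.26 to 11.32. AMBP was 2.51 in antibiotics distal tissue of piglet 87, against 3.20, and GATA4 was 2.28 in that of piglet 86, against 2.37 to 2.38, all dim.

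For PI3 the fitted antibiotic effect in distal tissue minus that in proximal tissue was -6.46 on the log2 scale and passed the threshold. Proximal PI3 was at or near the floor in both treatments, so a proximal decrease could not have been seen and the value restates the distal change. It passed in 13 of 29 analyses, counting the main one. It did not pass with the piglet as a fixed effect or with only the piglets that gave both segments (-6.07 in each). The gene was chosen with these values known.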

How the results depend on the processing

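No member difference that passed and no list gene named as rising or falling changed sign in any alternative. The proximal antibiotic differences of the members, which did not pass, took both signs. Leaving out 1 array at a time, PI3 ran from -7.55 to -5.88 for antibiotics in distal tissue, -0.01 to 0.14 in proximal tissue, -7.64 to -5.97 for the difference of these effects, 8.18 to 8.79 between segments in control piglets and 0.85 to 2.52 in antibiotics piglets. SPAI-2 ran from -6.32 to -4.37, -0.11 to -0.04, -6.26 to -4.30, 9.30 to 9.64 and 3.24 to 5.20, and SLPI from 0.51 to 1.18, -0.10 to 0.52, 0.31 to 0.98, 5.96 to 6.63 and 6.62 to 7.24, in the same order. The count of the 65 list genes that passed ran from 4 to 15, 1 to 7, 0 to 1, 1 to 2 and 6 to 8. The proximal count of 3 was 1 without antibiotics array 86, 87 or 95 or control array 83, and 7 without control array 88.

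With values under 5 set to 5, the PI3 difference of effects was -5.18, the PI3 segment difference in control piglets 5.96, and the SPAI-2 segment differences 6.77 in control and 1.80 in antibiotics piglets, and the count for the difference of effects was 1. With the 5′ minus 3′ covariate the PI3 proximal difference was 0.33. With the random replicate block the SPAI-2 proximal difference was 0.02, and the list count between segments in control piglets was 2; beside the values given above for the difference of effects and for SPAI-2, the block changed no call of a member. That count was 3 without control distal arrays 83 and 88. With array quality weights the counts were 27 distally, 11 proximally, 5 for the difference of effects and 13 between segments in antibiotics piglets. With no filter they were 4 distally and 0 proximally. With only animals with both segments the distal count was 6, and with only the 8 arrays of the comparison the proximal count was 0. The cause of these shifts was not tested.

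The fixed replicate block has no value for antibiotics against control within a segment, nor the 8-array fit for the difference of effects. A mean over probe sets of a member was not run, since each has 1. Under quantile scaling and equal array medians the median of all tested probe sets stayed within 0.08 of 0. Dim signals limit what can be read for PI3 and SPAI-2 in proximal tissue.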
